A study of Mus musculus with 4 samples.

Results

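The 10 genes described here encode sensors of RNA and DNA in the cytosol together with the adaptor and kinases that act with them: Ddx58, Ifih1, Dhx58, Mb21d1, Tmem173, Zbp1, Mavs, Tbk1, Ikbke and Alpk1. They were chosen by symbol, and all 10 were found among the 23418 genes of the count table. RNA was sequenced from B cells sorted out of cervical lymph nodes, which drain the salivary glands, in 2 BL/10 control libraries and 2 NOD.B10 libraries. NOD.B10 is a NOD-derived strain with the H2 haplotype of C57BL/10 that develops spontaneous inflammation of the salivary and lacrimal glands and serves to model Sjögren's disease. No agent or engineered allele is named for either strain, and age, sex and the number of animals behind a library are not given in the sources used here. Whether libraries of one strain stem from different animals is not stated, and every p-value reflects only the spread among these samples, which may be technical.

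Cells detect viral and misplaced nucleic acids in the cytosol through several receptor families. RIG-I (the product of Ddx58) and MDA5 (Ifih1) bind double-stranded RNA and signal through the mitochondrial adaptor MAVS, while cGAS (Mb21d1) binds DNA and makes a cyclic dinucleotide that activates STING (Tmem173). Both routes converge on the kinases TBK1 and IKK-epsilon (Ikbke), which phosphorylate interferon regulatory factors and so switch on type I interferon genes. Several of the sensors are themselves induced by interferon, which makes their RNA levels part of a feedback loop.

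Total counts lay between 19328803 and 29372751 reads per library. B cell markers were abundant in all 4 libraries, and 10 of 10 were tested. Their summed level was 9373 to 9557 reads per 1000000 (CPM, over TMM-scaled library sizes) in BL/10 and 10330 to 10950 CPM in NOD.B10. Of them 1, Fcer2a, was called higher (log2 fold change 0.57). Cr2 also lay higher, at 800 and 1166 CPM in BL/10 against 1486 and 1729 CPM in NOD.B10. It was not called (log2 fold change 0.71, edgeR adjusted p = 0.0538). Some lists of markers of other cells were mostly lower in NOD.B10, and others were mostly not called. The summed level of T cell markers over 19 genes was 790 to 910 CPM in BL/10 and 215 to 229 CPM in NOD.B10. Of them, 18 of the 19 (all but Thy1) were called lower in NOD.B10, and 0 had 0 reads throughout a strain. Most of the NOD.B10 sum was Cd2 (166 and 153 CPM) and Lck (38.3 and 45.9 CPM), which fell 1.29-fold and 1.66-fold. All other T cell markers fell by more, for example Cd3e from 43 and 59.3 CPM to 1.24 and 0.313 CPM. Natural killer cell markers were lower in 6 of 6 tested (15.3 and 27.8 CPM summed in BL/10 against 2.85 and 3.92 CPM), with Klrk1, Klrd1, Gzma and Gzmb at 0 reads in NOD.B10. Erythroid markers were lower in 3 of 4 (241 and 475 CPM against 10.3 and 4.27 CPM), with Slc4a1 at 0 reads in NOD.B10 and Hba-a1 at 0 in every library. Neutrophil markers were lower in 2 of 3 (2.36 and 4.42 CPM against 0.518 and 0.509 CPM), with S100a8, S100a9 and Retnlg at 0 in NOD.B10. Dendritic cell markers were lower in 4 of 10 (259 and 242 CPM against 200.3 and 169 CPM), with Batf3 at 0 in NOD.B10. Most of that sum was Ccr7, at 213 and 182 CPM against 169 and 142 CPM, which was not called. The 4 lower genes were Itgax, Siglech, Bst2 and Klk1. Klk1 (5.2 and 11.7 CPM against 0.415 and 1.02 CPM) encodes a tissue kallikrein and is no dendritic cell marker, though the list counts it. Macrophage and monocyte markers were lower in 3 of 10 (129 and 130.2 CPM against 60.8 and 43.7 CPM). Most of the BL/10 sum was Apoe, at 81 and 80.8 CPM against 16.7 and 17.6 CPM. Emr1 lay higher in NOD.B10 (7.23 and 5.12 CPM against 10.6 and 8.69 CPM) and was not called. Plasma cell markers were lower in 2 of 7 (1312 and 678 CPM against 695 and 618 CPM), and Igj among them differed widely within BL/10 (608 and 119 CPM, against 14 and 7.2 CPM) and was not called. The part of any of these transcripts in the differences below was not tested, and in bulk RNA fewer cells of a type and less RNA per cell cannot be told apart.

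Of the 10 genes, 4 were lower in NOD.B10 (Ddx58, Ifih1, Dhx58 and Zbp1), 2 were higher (Mb21d1 and Alpk1) and 4 were not called (Tmem173, Mavs, Tbk1 and Ikbke). A gene is called when its Benjamini-Hochberg adjusted p over all 13075 genes tested is under 0.05 in edgeR's quasi-likelihood test, and a gene that is not called is not thereby shown to be equal between the strains. Across all tested genes, 8.63% were called lower and 6.55% higher, 15.2% in all, against 60% of these 10. Libraries of the strains did not overlap for 8 of the 10, beside 55.6% of all genes tested. Their median log2 fold change (NOD.B10 over BL/10) was −0.25, beside −0.0032 over all genes tested. All of the RNA receptors fell, whereas the adaptors of both routes stayed uncalled. The count of lower genes was 3 when either NOD.B10 library was left out, since Ddx58 then lost its call. The count of higher genes was 1 without either BL/10 library or without the second NOD.B10 library, since Mb21d1 then lost its call.

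**Figure D1:**
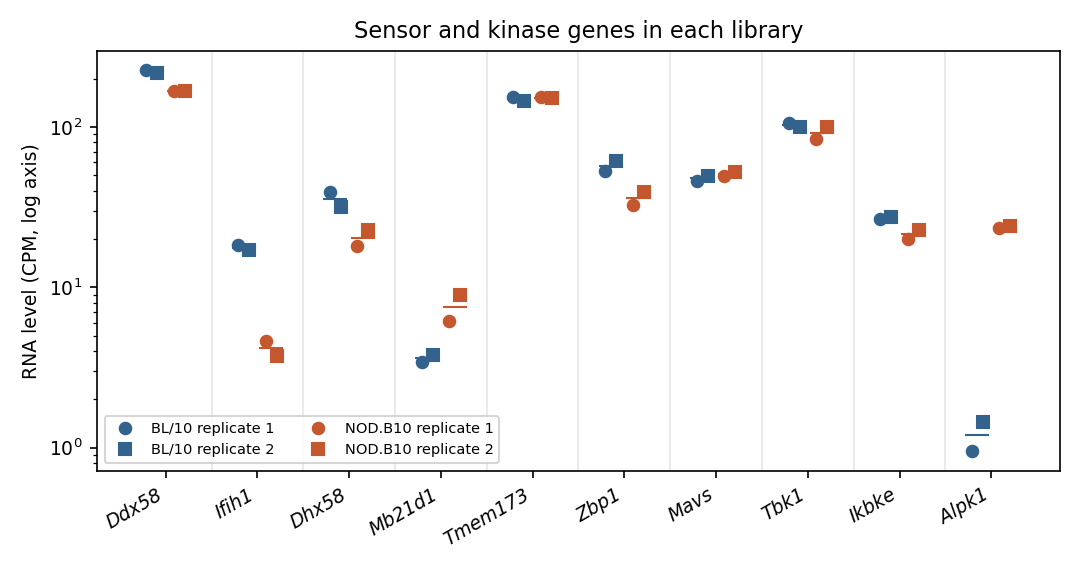
RNA level of each gene (CPM, log axis) in the 4 libraries, with circles for replicate 1, squares for replicate 2 and a line at each strain's mean. Points of the 2 strains lie apart for 8 genes and interleave for Tmem173 and Mavs.

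The sequence at the starts of the genes was searched for the core of the interferon-stimulated response element. This element is the site bound by the STAT and interferon regulatory factor complex. The motif searched was GAAA, any 2 bases and GAAA again, on both strands. RefSeq promoter sequences of GRCm38.p6 reach from 250 bases before to 50 bases after the start. They were searched for 7 of the 10 genes, and not for Dhx58, Tmem173 and Zbp1. In the 250 bases before the start the motif was in 0 of the 7, beside 2.98% of all 32851 promoters. Over the whole 300 bases it was in 2 of the 7, Ddx58 and Ifih1, beside 3.44% of all promoters. Both matches lie just inside the first exon, at base 3 of the transcript in Ddx58 and at base 33 in Ifih1. They follow with the 10 motif bases in capitals, the Ddx58 match being the reverse complement of the motif. The motif was not found in the 300 bases of Alpk1, Mb21d1, Mavs, Tbk1 and Ikbke. Dhx58 and Zbp1, which fell, were not searched, and a link between the motif and the changes was not tested. A match is a run of letters and no evidence of binding. Both sequences are on the minus strand, written 5′ to 3′.
Ddx58, chr4:40239804-40239833: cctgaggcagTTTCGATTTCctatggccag
Ifih1, chr2:62646206-62646235: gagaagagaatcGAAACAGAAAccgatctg

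The RNA receptor with the largest fall was Ifih1 (chromosome 2, 62595618 to 62646255, minus strand), whose product MDA5 recognises long double-stranded RNA. Read counts were 543 and 438 for BL/10 and 89 and 95 for NOD.B10, or 18.3 and 17 CPM against 4.61 and 3.72 CPM. Each NOD.B10 library was far below each BL/10 library. The mean went from 17.7 ± 0.962 CPM (SD, n = 2) to 4.17 ± 0.631 CPM, 4.26-fold lower (log2 fold change −2.09, SE 0.23, edgeR adjusted p = 3.45e-05). The call was kept in all 12 alternative settings, with log2 fold changes from −2.26 to −1.94.

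Ddx58 (chromosome 4, 40203777 to 40239825, minus strand) encodes RIG-I, which binds short double-stranded RNA carrying a terminal triphosphate. Its levels were 227 and 218 CPM in BL/10 and 166 and 166 CPM in NOD.B10. The strains did not overlap, and the NOD.B10 libraries were nearly equal. The fall was 1.34-fold (log2 fold change −0.42, SE 0.104, edgeR adjusted p = 0.0145). Without the first or the second NOD.B10 library the adjusted p was 0.0792 or 0.084, at log2 fold changes of −0.43 and −0.42.

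Dhx58 (chromosome 11, 100694884 to 100704271, minus strand) encodes LGP2, a relative of RIG-I and MDA5 that lacks their signalling domains and modulates both. Its levels were 39.1 and 31.5 CPM in BL/10 and 18.1 and 22.6 CPM in NOD.B10. The lower BL/10 library lay above the higher NOD.B10 library. The fall was 1.73-fold (log2 fold change −0.79, SE 0.174, edgeR adjusted p = 0.00748). An antisense gene, Dhx58os, shares 141 exon bases (4.31%) with it in the GENCODE M21 annotation, and reads of the pair cannot be told apart without the strand setting.

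The makeup of the RIG-I-like receptor RNA differed between the strains. Per kilobase of gene length, Ddx58 supplied 70.2% and 73.2% of the summed level of the 3 genes in the BL/10 libraries and 80.2% and 77% in the NOD.B10 libraries. Ifih1 supplied 5.08% and 5.1% in BL/10 and 1.99% and 1.54% in NOD.B10. RIG-I RNA was 13.8 and 14.4 times MDA5 RNA per length in BL/10 and 40.3 and 49.9 times in NOD.B10. For the ratio of Dhx58 to Ddx58 the strains lay closer, at 0.353 and 0.296 in BL/10 and 0.223 and 0.279 in NOD.B10. With 2 libraries a strain an exact permutation test of such a ratio cannot pass 0.05, so these are descriptions.

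**Figure D2:**
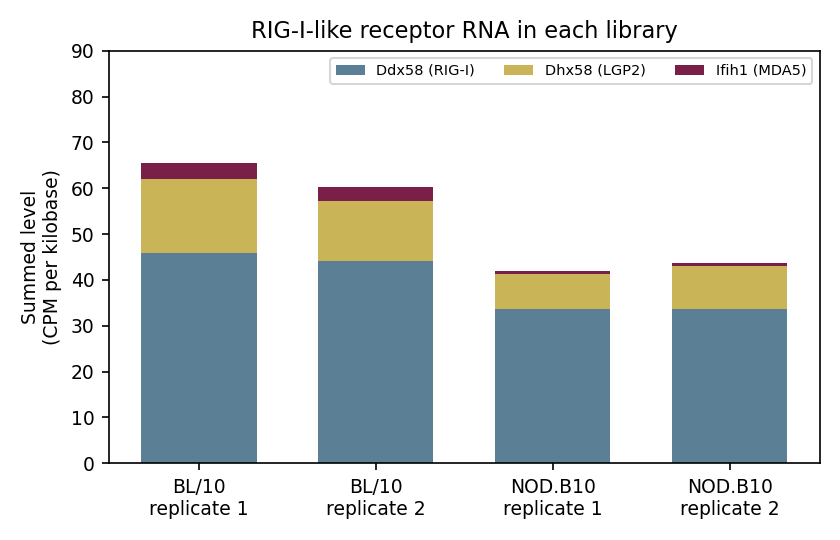
Summed level (CPM per kilobase of gene length, bars from 0) of the RIG-I-like receptor genes in each library, split by gene. The total was 65.4 and 60.3 in BL/10 and 42 and 43.7 in NOD.B10, and the Ifih1 segment shrank most in proportion.

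Mavs (chromosome 2, 131234063 to 131248025, plus strand), the adaptor that RIG-I and MDA5 share, was not called. Its levels were 46.2 and 49.6 CPM in BL/10 and 49.1 and 52.5 CPM in NOD.B10, and the strains overlapped (log2 fold change 0.09, SE 0.126, edgeR adjusted p = 0.736). Whether its change differs from that of each receptor was not tested by itself.

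On the DNA route, Mb21d1 (chromosome 9, 78430518 to 78443237, minus strand), the gene of cGAS, was weakly expressed and higher in NOD.B10. It had 101 and 98 reads in BL/10 and 118 and 229 reads in NOD.B10, or 3.41 and 3.8 CPM against 6.11 and 8.97 CPM. The NOD.B10 libraries were both above BL/10 but lay far from each other. The rise was 2.1-fold (log2 fold change 1.07, SE 0.306, edgeR adjusted p = 0.0307). The adjusted p was 0.107 without the first BL/10 library, 0.0629 without the second and 0.202 without the second NOD.B10 library, where the log2 fold change was 0.76. A pseudogene on the opposite strand, Gm8093, shares 201 exon bases (4.87%) with Mb21d1 in GENCODE M21.

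Tmem173 (chromosome 18, 35733678 to 35740554, minus strand), the gene of STING, the receptor of the cGAS product, had even levels, at 153 and 146 CPM in BL/10 and 153 and 152 CPM in NOD.B10. The NOD.B10 values fell inside the BL/10 range, and the log2 fold change was 0.03 (SE 0.107, edgeR adjusted p = 0.913). STING RNA was 78.1 and 66.7 times cGAS RNA per length in the BL/10 libraries and 43.4 and 29.5 times in the NOD.B10 libraries.

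Zbp1 (chromosome 2, 173206612 to 173218959, minus strand) encodes a sensor of Z-form nucleic acids that can trigger necroptosis through RIPK3. Its levels were 53.2 and 61.2 CPM in BL/10 and 32.7 and 39.1 CPM in NOD.B10, with no overlap. The fall was 1.59-fold (log2 fold change −0.67, SE 0.141, edgeR adjusted p = 0.00576). The calls of Zbp1 and Dhx58 were kept in all 12 alternative settings. Ripk3 stood at 22.8 and 24 CPM in BL/10 and 17.6 and 19.3 CPM in NOD.B10 and was not called (log2 fold change −0.35, SE 0.165, edgeR adjusted p = 0.203). Mlkl, the executioner of necroptosis, had few reads, with 31 and 14 reads in BL/10 and 8 and 8 reads in NOD.B10 (edgeR adjusted p = 0.373).

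Neither of the kinases at the junction of the routes was called. Tbk1 (chromosome 10, 121546455 to 121586794, minus strand) had 106 and 100 CPM in BL/10 and 84.5 and 99.8 CPM in NOD.B10 (log2 fold change −0.16, SE 0.121, edgeR adjusted p = 0.45). Ikbke (chromosome 1, 131254600 to 131279601, minus strand) had 26.7 and 27.6 CPM in BL/10 and 20.1 and 22.7 CPM in NOD.B10 (log2 fold change −0.34, SE 0.159, edgeR adjusted p = 0.195). For both genes the NOD.B10 libraries were the lower ones without overlap, for Tbk1 by less than 1 CPM. Per length, Tbk1 RNA was 4.21 and 3.85 times Ikbke RNA in BL/10 and 4.44 and 4.64 times in NOD.B10. A pair of antisense genes share 159 and 65 exon bases with Ikbke in GENCODE M21.

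Alpk1 (chromosome 3, 127666718 to 127780547, minus strand) had the largest change of the set. It encodes alpha-kinase 1, which detects bacterial sugar nucleotides in the cytosol and phosphorylates the adaptor TIFA to activate NF-kB, and so senses neither RNA nor DNA. Read counts were 28 and 37 for BL/10 and 453 and 616 for NOD.B10, or 0.945 and 1.43 CPM against 23.5 and 24.1 CPM. The rise was from 1.19 ± 0.345 CPM (SD, n = 2) to 23.8 ± 0.458 CPM, 20.2-fold (log2 fold change 4.33, SE 0.264, edgeR adjusted p = 1.15e-07). In 12 alternative settings it kept its call, with log2 fold changes from 4.05 to 4.65.

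Tifa, the adaptor of ALPK1, is also the next tested gene along the chromosome, at 127788875 to 127798394. Its levels were 28.3 and 18.3 CPM in BL/10 and 24.8 and 32.5 CPM in NOD.B10, which overlap (log2 fold change 0.29, SE 0.22, edgeR adjusted p = 0.459). Without the first BL/10 library Tifa was called higher (log2 fold change 0.64, adjusted p = 0.036). The nearest tested gene on the other side, 4930422G04Rik, rose from 19.4 and 18.2 CPM to 27.9 and 31.5 CPM (log2 fold change 0.66, edgeR adjusted p = 0.013), a call lost with the second NOD.B10 library left out (adjusted p = 0.0714). It was the 1 called gene among 5 tested within 500 kb of Alpk1. Tifab, which encodes a TIFA-related inhibitor, fell from 53 and 63 reads to 10 and 10 reads (log2 fold change −2.23, SE 0.583, edgeR adjusted p = 0.0195), and lost its call without the first (adjusted p = 0.0625) or the second BL/10 library (adjusted p = 0.17) and had too few reads for the stricter filter. It was the 1 called gene among 10 partners of ZBP1 and ALPK1 (10% lower, beside 8.63% of all tested genes).

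**Figure D3:**
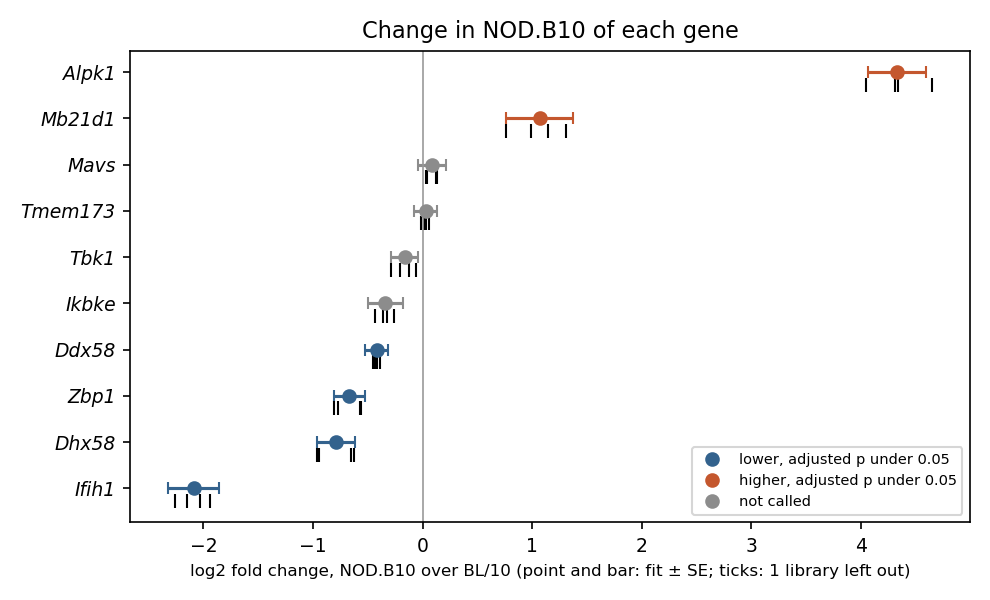
Log2 fold change of each gene, NOD.B10 over BL/10, from the edgeR fit to 4 libraries (point) with its SE (bar), and the values with 1 library left out (ticks). Alpk1 stands at 4.33 and Ifih1 at −2.09, and the other genes lie between −0.79 and 1.07.

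Around all 10 genes, 105 tested genes started within 500 kb, of which 4 were lower and 7 higher, or 10.5% called beside 15.2% of all genes. The nearest tested genes on both sides of Ifih1 (Dpp4 and Gca), Ddx58 (Aco1 and Topors), Dhx58 (Zfp385c and Kat2a) and Zbp1 (Rbm38 and Pmepa1) were not called, nor were those of Mb21d1 (C920006O11Rik and Mto1). Gca had the smallest adjusted p of these, with 8.95 and 5.31 CPM in BL/10 against 4.2 and 2.51 CPM in NOD.B10 (log2 fold change −1.10, edgeR adjusted p = 0.0593). Gca was called lower with the second BL/10 library left out (adjusted p = 0.0203), as it was after dropping the first of the NOD.B10 libraries (adjusted p = 0.00205), in the fit blocked by replicate number (adjusted p = 0.0363) and when low counts were not filtered (adjusted p = 0.00657).

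Levels per kilobase put the genes in nearly the same order in both strains, apart from Alpk1 and Ifih1. In BL/10 the order ran from Tmem173 (65 ± 2.29 CPM per kilobase, SD, n = 2) and Ddx58 (45 ± 1.24) through Tbk1, Zbp1, Mavs, Dhx58 and Ikbke to Ifih1 (3.2 ± 0.174), Mb21d1 (0.901 ± 0.0685) and Alpk1 (0.248 ± 0.072). Only Mavs and Dhx58, at 15 ± 0.764 and 14.6 ± 2.22, overlapped as neighbours there. In NOD.B10 Alpk1 was the eighth at 4.96 ± 0.0955, above Mb21d1 at 1.88 ± 0.504, and Ifih1 was the last at 0.755 ± 0.114. Here Zbp1 (16.6 ± 2.09) and Mavs (15.9 ± 0.751) were the neighbours that overlapped.

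**Figure D4:**
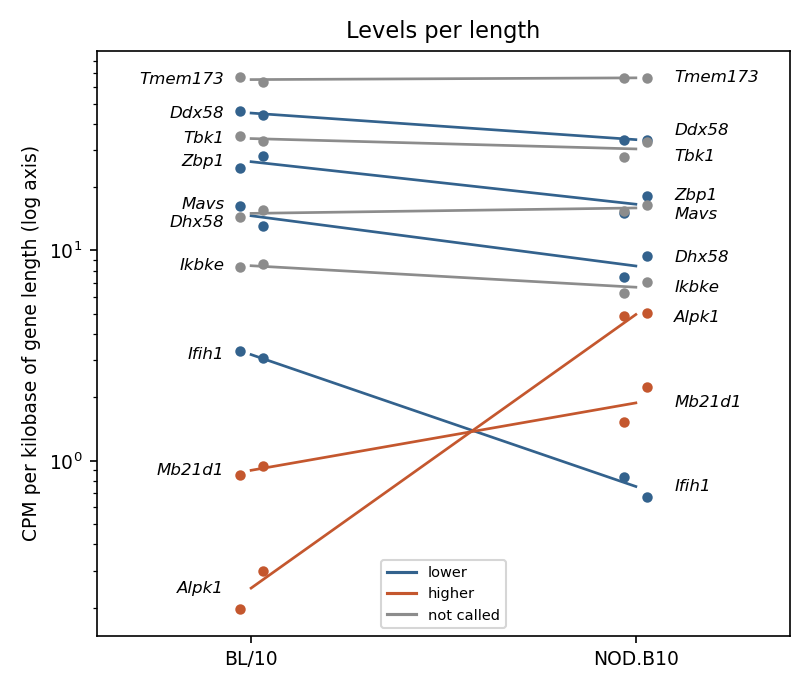
Level of each gene per kilobase of gene length (CPM per kilobase, log axis) in BL/10 and NOD.B10, with points for libraries and lines between strain means. The lines of Alpk1, Mb21d1 and Ifih1 cross. Those of Tmem173, Mavs and Tbk1 run nearly level, and those of Ddx58, Zbp1, Dhx58 and Ikbke drop, of which Ikbke was not called.

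By centred log2 CPM over the 4 libraries, the tested genes most like Alpk1 were Pianp, Atp6v0e2 and Ifi204, at Euclidean distances of 0.285, 0.396 and 0.421. Their log2 fold changes were 4.11, 4.64 and 4.17. Those most like Ifih1 were Prkca, Kif11 and Mex3b, at distances of 0.166, 0.199 and 0.221, with log2 fold changes of −1.95, −1.99 and −2.13. With 4 libraries in 2 strains, such likeness reflects a similar fold change and little else.

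Among 20 partners of RNA sensing, 6 fell (30%, beside 8.63% of all tested genes) and 14 were not called (median log2 fold change −0.12), in libraries that also differed in markers of T cells and other cells. Eif2ak2, the gene of the RNA-activated kinase PKR, fell from 72.9 and 72.4 CPM to 15.5 and 14.8 CPM (log2 fold change −2.26, SE 0.135, edgeR adjusted p = 9.36e-08). Trim25, the ubiquitin ligase that activates RIG-I, fell from 354 and 289 CPM to 172 and 211 CPM (log2 fold change −0.75, SE 0.132, edgeR adjusted p = 0.00244). Ddx60, a helicase that assists RIG-I-like receptors, was 2.74-fold lower. Rnf125, a ligase that marks RIG-I for degradation, was 4.23-fold lower, with 0.871 ± 0.0137 CPM in NOD.B10 against 3.68 ± 0.714 CPM in BL/10. The call of Rnf125 was lost with the first BL/10 library left out (adjusted p = 0.073). Activators and an inhibitor of RIG-I fell in the same libraries. Without the second BL/10 library 1 partner, Pqbp1, was called higher (log2 fold change 0.42). Zcchc3 was called lower when low counts were not filtered (log2 fold change −1.08, edgeR adjusted p = 0.0477).

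The partners of DNA sensing were mostly not called. Of 27 tested, 2 fell and 2 rose, or 14.8% called, near the 15.2% of all tested genes, with a median log2 fold change of −0.06. Samhd1, an enzyme that depletes nucleotides, fell from 908 and 836 CPM to 637 and 703 CPM (log2 fold change −0.38, SE 0.101, edgeR adjusted p = 0.0214). Its call was lost with the first NOD.B10 library left out, and log2 fold changes with 1 library left out were −0.45 to −0.32. Members of the DNA-dependent protein kinase complex moved apart. Its catalytic subunit Prkdc rose 1.48-fold from 131 ± 5.25 to 194 ± 20.5 CPM (edgeR adjusted p = 0.00463). The Ku subunit Xrcc5 rose (log2 fold change 0.50) while its partner Xrcc6 fell (log2 fold change −0.63). Without the first NOD.B10 library Prkdc (adjusted p = 0.0588), Xrcc5 (0.19) and Xrcc6 (0.0906) were not called. Xrcc5 was also not called with the first BL/10 library left out (adjusted p = 0.227) or in 6 other settings (adjusted p from 0.0524 to 0.0588), and Xrcc6 was not called with the second BL/10 library left out (adjusted p = 0.133). Hmgb2, the gene of a nuclear DNA-binding protein, had 26.2 and 33.8 CPM in BL/10 and 48.4 and 18.8 CPM in NOD.B10 and was not called (edgeR adjusted p = 0.915). It was called lower with the first NOD.B10 library left out (log2 fold change −0.69) and higher with the second left out (log2 fold change 0.69). Trex1, which degrades cytosolic DNA, stood at 71.7 and 79.4 CPM in BL/10 and 68.4 and 76.4 CPM in NOD.B10, and Enpp1, which hydrolyses the cGAS product, at 68.5 and 55.8 CPM against 79.3 and 69.4 CPM. The strains overlapped for Trex1 and not for Enpp1, and neither was called (edgeR adjusted p = 0.82 and 0.253). Nlrc3 was not called either (log2 fold change −0.42, edgeR adjusted p = 0.0692). It was called lower when low counts were not filtered (edgeR adjusted p = 0.0169) and with a replicate block (edgeR adjusted p = 0.0452). Hmgb1 was called lower with the first NOD.B10 library left out (log2 fold change −0.71).

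In the TBK1 and IKK complex list 3 of 21 genes rose and 18 were not called. The 14.3% called is near the 15.2% over all tested genes, so the calls below are of single genes and not of the list. Tank, a scaffold that binds TBK1 and IKK-epsilon, rose from 76.1 and 92.1 CPM to 137 and 119 CPM (log2 fold change 0.61, SE 0.13, edgeR adjusted p = 0.00615). Ikbkb, the kinase IKK-beta of NF-kB activation, rose from 163 and 161 CPM to 219 and 238 CPM (log2 fold change 0.50), a call lost with the second NOD.B10 library left out (adjusted p = 0.0608). Traf3, the ligase that links MAVS to TBK1, had a log2 fold change of 0.37 and was not called with a replicate block (adjusted p = 0.0511), with the first BL/10 library left out (adjusted p = 0.0703) or without either NOD.B10 library (adjusted p = 0.0914 and 0.219). Tank alone of these kept its call with the second NOD.B10 library left out.

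Of the factors downstream, 2 of 8 interferon regulatory factors fell, or 25% beside 8.63% of all tested genes. Irf7, the interferon-induced member that sustains the response, fell from 79.1 and 73.3 CPM to 23.2 and 20.1 CPM (log2 fold change −1.82, SE 0.136, edgeR adjusted p = 9.73e-07). Irf9, the DNA-binding part of the interferon-activated complex, fell 1.45-fold. Its call was lost when the first NOD.B10 library was left out. Log2 fold changes of Irf9 with 1 library left out were −0.68 to −0.38. Irf3, the direct target of TBK1, was not called, with 79.7 and 81.9 CPM in BL/10 and 61.7 and 80.9 CPM in NOD.B10 (edgeR adjusted p = 0.47). Stat2, another part of the interferon-activated complex, had a log2 fold change of −0.13 (edgeR adjusted p = 0.587). With the first BL/10 library left out Irf8 was called higher (log2 fold change 0.30, adjusted p = 0.0445).

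Interferon transcripts were scarcely present. Ifnb1, Ifna1, Ifna2, Ifna4, Ifna5, Ifnl2 and Ifnl3 had 0 reads in all libraries, which allows 0.0541 CPM at most in BL/10 and 0.0669 CPM at most in NOD.B10 (3 reads over a strain, counting error only). Ifnk had 28 and 13 reads in BL/10 and 53 and 33 reads in NOD.B10 and was not called (edgeR adjusted p = 0.137), except with the second NOD.B10 library left out (adjusted p = 0.0258). Of 12 tested genes of interferons and their receptor signalling, 1 fell (8.33%, near the 8.63% of all tested genes) and 11 were not called. That gene was Usp18, an interferon-induced brake on the receptor, at 34.2 and 30 CPM in BL/10 and 12.9 and 16.5 CPM in NOD.B10 (edgeR adjusted p = 7.23e-04).

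The interferon-stimulated list, which holds Ddx58, Ifih1, Dhx58 and Zbp1 themselves, had 29 of 38 genes lower (76.3%, beside 8.63% of all tested genes) and 9 not called (median log2 fold change −1.14). Gbp2, of the latter, was called higher with the first NOD.B10 library left out (log2 fold change 0.66). Isg15 was called lower when low counts were not filtered (log2 fold change −1.16, edgeR adjusted p = 0.00931). Isg15 and Sp100 were called lower with the first BL/10 library left out (log2 fold changes −1.47 and −0.40). Ifi44 and Cxcl10, each at 0 reads in 1 NOD.B10 library, were called lower with the other left out. The genes of the list with the smallest adjusted p were Oas3, Rsad2, Ifit3, Oas2 and Ifit1. Their falls ran from 8.01-fold for Oas3 to 48.3-fold for Rsad2. Ifih1 had a log2 fold change beyond the median of this list, while Ddx58, Dhx58 and Zbp1 fell by less than it. Markers of T cells (18 of 19) and natural killer cells (6 of 6) were called lower in the same libraries. So were markers of erythroid cells (3 of 4), neutrophils (2 of 3) and dendritic cells (4 of 10, Klk1 among them). Macrophage and monocyte markers (3 of 10) and plasma cell markers (2 of 7) were also called lower in part. Bst2 is on both the dendritic cell list and the interferon-stimulated list. The part of these markers in the falls of interferon-stimulated genes was not tested.

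**Figure D5:**
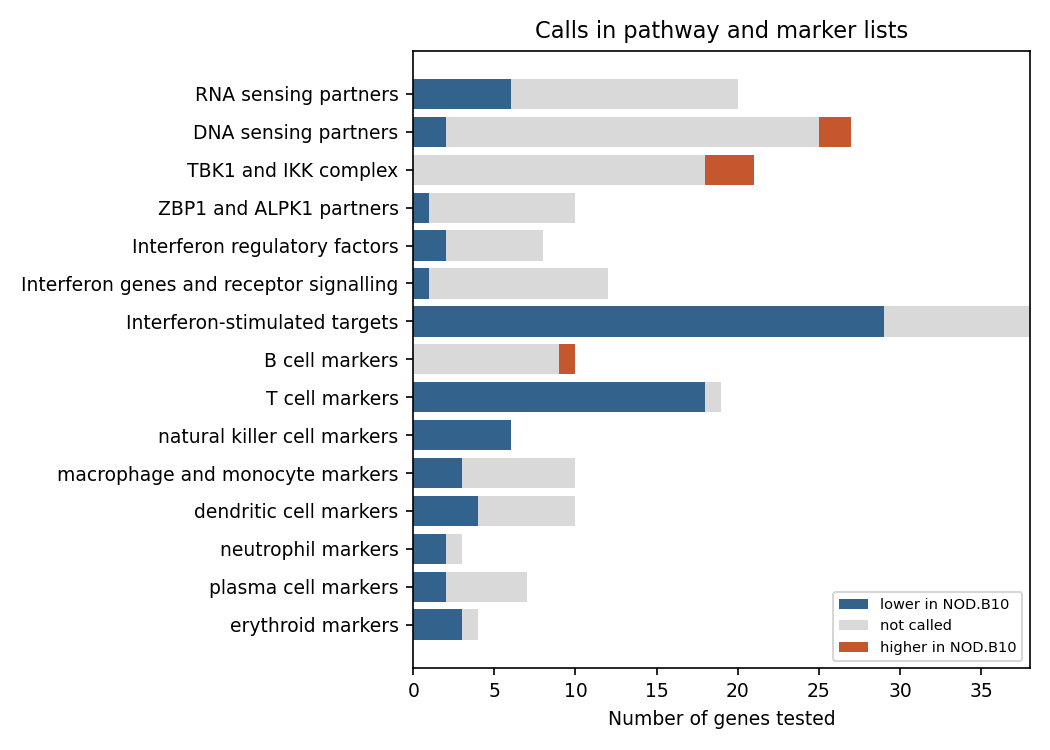
Number of tested genes called lower, not called or called higher in NOD.B10 in each pathway list and each cell type marker list. Lower genes made up 6 of 6 markers of natural killer cells, 18 of 19 of T cells and 29 of 38 interferon-stimulated targets, and 1 of 10 B cell markers was higher.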

How the data were processed

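The submitters' processing notes name HISAT2 2.1.0, SAMtools 1.3, featureCounts and Subread 1.6.5, with mm10 as the build. Annotation, strand setting and handling of multi-mapped reads are not given in the sources used here. The authors deposited read counts per gene symbol with gene lengths (bases), without normalisation. The comparison used edgeR 4.0.16 in R 4.3.3 (TMM, filterByExpr with minimum count 10 and minimum total 15, glmQLFit with robust dispersion, glmQLFTest, two-sided), with Benjamini-Hochberg adjustment over 13075 genes. CPM are over TMM-scaled library sizes, and levels per length divide them by the deposited length. Each SE divides the unshrunken log2 fold change by the square root of its F statistic. Alternatives included DESeq2 1.42.0 and limma-voom 3.58.1. The fit was checked on simulated counts, in which false calls exceeded the nominal share and most small changes were missed. Coordinates are RefSeq positions on GRCm38.p6 (mm10), 1-based, and 23234 of 23418 symbols matched. Genes and lists were chosen with earlier results of these data known. Text names all 10 genes, up to 5 called genes per pathway list with the smallest adjusted p, a fixed set of direct partners, the nearest tested neighbours of called genes, and the 3 most similar patterns for the largest rise and fall. Some genes this rule names are not reported here. Fcer2a, Thy1, Cd2, Lck, Cd3e, Ccr7, Igj, Pqbp1, Hmgb2, Irf8, Ifnk, Gbp2 and Gca were named after their values were seen. The same holds for Cr2, Itgax, Siglech, Bst2, Klk1, Apoe, Emr1, Zcchc3, Nlrc3, Hmgb1, Isg15, Sp100, Ifi44 and Cxcl10. Replicate numbers share no stated origin, so the main fit has no block.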

Additional observations from a re-analysis of the deposited data

How the results depend on the processing

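The 47 genes followed gave 562 values under RLE or upper-quartile factors, no filter, a minimum count of 50, DESeq2, limma-voom, non-robust dispersion, a replicate block and 1 library left out. Of these values, 529 kept the call or its absence, 28 lost the call, 5 gained it and 0 reversed a called direction. The 529 include changes of sign in genes not called, as for Tmem173 and Stat2 with 1 library left out. With the replicate block 4 of the 10 sensor genes were called lower and 2 higher, as without it. Same-numbered samples correlated at −0.0165 in their deviations. With 2 libraries a strain the deviations mirror each other, so this is 1 value for both numbers and does not settle whether samples were paired. With RLE factors, the stricter filter, DESeq2, limma-voom, the replicate block or non-robust dispersion 1 DNA sensing partner was higher, not 2, and with the stricter filter 0 partners of ZBP1 and ALPK1 were lower. Over 300 promoter bases 2 genes held the motif, not 0, and within 250 kb 2 neighbouring genes were lower, not 4. With 1 library left out the count of sensor genes called higher was 1 to 2. Likewise it was 0 to 3 for DNA sensing partners higher, 1 to 3 for the TBK1 and IKK complex higher, 0 to 1 for RNA sensing partners higher, 0 to 1 for partners of ZBP1 and ALPK1 lower and 0 to 1 higher, 1 to 2 for interferon regulatory factors lower and 0 to 1 higher, 0 to 1 for interferon receptor genes higher, and 0 to 1 for interferon-stimulated targets higher. Alpk1 in BL/10 rests on 65 reads and Mb21d1 on 98 to 229 reads a library, which limits both.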
